A study of Mus musculus with 10 samples.

Results

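Fam19a5, Dynap, Acsbg1, Rapgef3 and Klk7 are 5 of the 45706 mouse genes in a count table of whole melanoma tumors. They were chosen from these same data because their counts were higher in COX-deficient tumors than in COX-competent tumors, and were proposed as genes whose gain does not depend on natural killer (NK) cells. All 5 passed the filter on low counts that left 14550 genes for testing, Klk7 only when tumors of hosts without NK cells were included. Their higher counts in COX-deficient tumors are therefore what chose them and are given below as a description with no test. The difference between COX-deficient tumors of hosts with and without NK cells is not taken against the COX-competent libraries. These libraries still entered the filter, the scaling and the estimate of spread used for it. That difference is not an independent test, since the genes were proposed as independent of NK cells with these results known.

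The tumors grew from BrafV600E-driven melanoma cells of C57BL/6 origin, implanted in 8-week-old C57BL/6 mice, and RNA was taken from the bulk tumor on day 4. There were 4 tumors of wildtype cells in untreated mice (Ptgs+/+ tumors), 3 tumors of Ptgs1/Ptgs2-deficient cells in untreated mice (Ptgs-/- tumors), and 3 tumors of the same deficient cells in mice whose NK cells were removed with antibodies to NK1.1 (200 µg) and asialo GM1 (30 µg) on days 0 and 2 (NK-depleted Ptgs-/- tumors). The doses and days are those of the labels, while the study's general methods give a schedule that starts before implantation. Ptgs1 and Ptgs2 encode the cyclooxygenases COX-1 and COX-2, which make the precursor of prostaglandin E2 (PGE2). The deficient cells were made from the parental line with CRISPR/Cas9 and only the tumor cells lacked the genes, since the hosts kept both. Whether the deficient line is 1 clone is not given in the sources used here, and no group with COX restored and no NK cell-depleted group with wildtype tumors were analysed here. For this reason the loss of COX and any other difference between the deficient and the parental cells cannot be told apart in any comparison with Ptgs+/+ tumors, and both such comparisons with Ptgs+/+ tumors share the same 4 libraries.

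The 5 genes have separate roles. Fam19a5, also named Tafa5, encodes a small secreted chemokine-like protein of the TAFA family that is best known from the brain. Dynap encodes a membrane protein that binds dynactin, the partner complex of the dynein motor. Acsbg1 encodes an acyl-CoA synthetase of the bubblegum family, which joins long and very long fatty acids to coenzyme A so that they can be used. Rapgef3 encodes EPAC1, an exchange factor that cyclic AMP (cAMP) binds and that then loads the small GTPase Rap with GTP. PGE2 raises cAMP through its receptors EP2 and EP4, and EPAC proteins and protein kinase A (PKA) are the main readers of cAMP in the cell. Klk7 encodes a secreted kallikrein, a serine protease that cuts the proteins holding together the cornified cells of the skin surface.

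In GRCm38, 4 of the genes lie at chr15:87544299-87759364 (Fam19a5, plus strand), chr9:54604877-54661870 (Acsbg1, minus strand), chr15:97744770-97767972 (Rapgef3, minus strand) and chr7:43811294-43816359 (Klk7, plus strand). RefSeq gave start sites for 4 of the 5 genes on GRCm38.p6, and the 250 bases before the first listed start of each are shown so that the letters upstream of genes gained in the same tumors can be compared. Each runs 5′ to 3′ on the strand of its gene, and capitals mark every match to a motif named in the next paragraph. Positions count back from the start, with -1 as the base just before it.
Fam19a5, chr15:87544049-87544298: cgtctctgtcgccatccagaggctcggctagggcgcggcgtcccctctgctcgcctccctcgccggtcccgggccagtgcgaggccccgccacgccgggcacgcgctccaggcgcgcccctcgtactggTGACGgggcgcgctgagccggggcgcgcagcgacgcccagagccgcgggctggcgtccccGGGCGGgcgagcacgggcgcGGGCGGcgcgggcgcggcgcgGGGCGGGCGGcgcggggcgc
Acsbg1, chr9:54661886-54662135: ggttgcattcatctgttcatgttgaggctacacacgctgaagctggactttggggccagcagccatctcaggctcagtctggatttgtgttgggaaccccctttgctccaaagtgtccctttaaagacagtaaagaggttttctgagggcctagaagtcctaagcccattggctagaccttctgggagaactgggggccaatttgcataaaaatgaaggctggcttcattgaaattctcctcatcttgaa
Rapgef3, chr15:97767667-97767916: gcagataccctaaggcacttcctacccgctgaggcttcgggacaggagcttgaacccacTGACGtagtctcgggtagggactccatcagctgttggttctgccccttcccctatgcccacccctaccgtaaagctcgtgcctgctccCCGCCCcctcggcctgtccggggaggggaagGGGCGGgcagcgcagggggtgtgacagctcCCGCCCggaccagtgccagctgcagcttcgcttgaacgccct
Klk7, chr7:43811044-43811293: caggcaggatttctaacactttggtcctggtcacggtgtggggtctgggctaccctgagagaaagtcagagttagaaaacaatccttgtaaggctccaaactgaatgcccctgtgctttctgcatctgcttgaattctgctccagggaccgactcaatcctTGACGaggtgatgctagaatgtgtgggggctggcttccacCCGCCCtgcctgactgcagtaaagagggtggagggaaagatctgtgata

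The windows differed widely in base composition. The share of G and C was 83.6% before Fam19a5 and 66.0% before Rapgef3, against 48.4% before Acsbg1 and 52.4% before Klk7, where the 32851 RefSeq windows of the same length had a median of 52.4% and quartiles of 45.2% and 61.2%. The pair CG occurred 48 times before Fam19a5, 15 times before Rapgef3, 4 times before Klk7 and 1 time before Acsbg1. The letters TGACG, the core of the element that the cAMP-responsive factor CREB binds, were found on either strand in 3 of the 4 windows, with the first base at -121 from the start of Fam19a5, -191 from Rapgef3 and -89 from Klk7, and in 17.8% of all windows. The full element TGACGTCA, which contains TGACG, was in none of the 4 and in 1.55% of all windows. The GC box GGGCGG, read on both strands and allowed to overlap itself, was present 4 times before Fam19a5, 3 times before Rapgef3 and 1 time before Klk7, and in 32.7% of all windows. The window before Acsbg1 held no match to any motif named here and so has no capitals. None of the 4 windows held the AP-1 site TGANTCA (6.75% of all windows), the MYC E-box CACGTG (6.02%), the MITF E-box CATGTG (12.3%), the TATA box TATAAA (12.4%) or the SOX motif ACAAAG (16.5%). A further Fam19a5 start in RefSeq, at chr15:87625230, had 81.6% G and C, 4 GC boxes and an AP-1 match at -190. None of these motifs was shared by all 4 windows, and a match in this window is a description of its letters only.

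The libraries held between 8150556 and 12839174 counts, and levels are given in CPM, counts scaled to a library total of 1000000, for which the floor of 3 counts in a library is 0.234 to 0.368 CPM and covers counting error only. QuantSeq reads only the 3′ end of a transcript, so counts do not scale with transcript length. The targeted genes kept counts in the deficient tumors. Ptgs2 was at 346.6, 290.1, 94.4 and 282.8 CPM in the Ptgs+/+ tumors, at 74.8, 27.2 and 27.0 CPM in the Ptgs-/- tumors and at 49.3, 40.2 and 45.0 CPM in the NK-depleted Ptgs-/- tumors. Ptgs1 was between 128 and 169.9 CPM in the Ptgs+/+ tumors and between 76.97 and 105.4 CPM in the 6 deficient tumors. The position of the CRISPR lesions was not used here and host cells carry both genes, so these 3′ counts do not check the lesions. Ncr1, which encodes the NK cell receptor NKp46, had 20, 48 and 77 counts in the Ptgs-/- tumors and 0 in each of the 3 NK-depleted libraries. Of 12 melanocytic markers, Mitf, Kit and Sox10 passed the filter, while the pigment genes Tyr and Tyrp1 reached at most 1 count in any library and Dct and Pmel at most 8. The summed level of the list was 27.7 to 40.5 CPM in Ptgs+/+, 31.65 to 40.0 CPM in Ptgs-/- and 33.7 to 39.8 CPM in NK-depleted Ptgs-/- tumors.

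Fam19a5 was close to the floor in COX-competent tumors and was counted in every deficient tumor. The 4 Ptgs+/+ libraries held 8, 5, 6 and 5 counts (0.623, 0.516, 0.527 and 0.523 CPM). The 3 Ptgs-/- libraries held 99, 67 and 134 counts (12.2, 6.93 and 12.2 CPM), and the 3 NK-depleted libraries held 135, 141 and 118 counts (14.4, 13.01 and 11.7 CPM). The lowest deficient library, Ptgs-/- replicate 2, was 11.1-fold above the highest Ptgs+/+ library, so the groups did not overlap. Mean levels were 0.547 ± 0.0509 CPM (SD, n = 4), 10.4 ± 3.03 CPM (n = 3) and 13.1 ± 1.36 CPM (n = 3). On the fitted log2 scale the level was 4.15 (SE 0.26) above Ptgs+/+ in Ptgs-/- tumors, or 17.8-fold, and 4.51 (SE 0.26), or 22.7-fold, in NK-depleted Ptgs-/- tumors. By the size of the fitted log2 fold change, Fam19a5 stood at place 7 of the 14550 genes in the first comparison and at place 78 in the second.

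Dynap had the most counts after Rapgef3 of the 5 genes in the deficient tumors and was already well counted in COX-competent ones. The gene lies at chr18:70240429-70244582 on the minus strand of GRCm38. It was at 18.7, 23.4, 21.3 and 18.4 CPM in the Ptgs+/+ tumors, from 176 to 243 counts. In the Ptgs-/- tumors it was at 132.5, 75.3 and 143.3 CPM, and in NK-depleted Ptgs-/- tumors at 115.7, 126.3 and 108.7 CPM. Replicate 2 of the Ptgs-/- tumors was again the lowest deficient library, 3.22-fold above the highest Ptgs+/+ library. The means were 20.5 ± 2.36, 117 ± 36.5 and 116.9 ± 8.88 CPM, and the fitted log2 difference from Ptgs+/+ was 2.45 (SE 0.19) in Ptgs-/- tumors and 2.48 (SE 0.19) in NK-depleted Ptgs-/- tumors, 5.47-fold and 5.58-fold.

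Acsbg1 was likewise low but measurable in COX-competent tumors. Its levels were 4.36, 5.57, 6.58 and 3.45 CPM in the Ptgs+/+ tumors, 36.8, 25.7 and 41.9 CPM in the Ptgs-/- tumors, and 35.1, 32.2 and 34.4 CPM in NK-depleted Ptgs-/- tumors. All 6 deficient libraries lay above all 4 Ptgs+/+ libraries, and the gap between the nearest of them was 3.90-fold. Means were 4.99 ± 1.37, 34.8 ± 8.33 and 33.9 ± 1.51 CPM. The fitted log2 difference from Ptgs+/+ was 2.73 (SE 0.22) and 2.72 (SE 0.22), or 6.65-fold and 6.60-fold, in the Ptgs-/- tumors without and with NK cell depletion. The nearest gene, Idh3a, which encodes a subunit of a mitochondrial isocitrate dehydrogenase, ends 0.216 kb from the end of Acsbg1 on the opposite strand. Its log2 difference from Ptgs+/+ was -0.38 (SE 0.21, edgeR adjusted p = 0.225) in Ptgs-/- tumors.

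Rapgef3 had the most counts of the 5 genes and the smallest relative gain. It was at 69.9, 60.6, 80.2 and 70.8 CPM in the Ptgs+/+ tumors, at 223.9, 174.8 and 195.2 CPM in the Ptgs-/- tumors, and at 201.3, 220.0 and 206.8 CPM in NK-depleted Ptgs-/- tumors. The deficient libraries started 2.18-fold above the highest Ptgs+/+ library. Means were 70.4 ± 8.02, 198 ± 24.6 and 209.4 ± 9.63 CPM, and the fitted log2 difference was 1.43 (SE 0.11), or 2.70-fold, and 1.54 (SE 0.11), or 2.91-fold. The first of these lies just under, and the second just over, the log2 threshold of 1.5 used for calling genes. Antisense genes overlap Rapgef3, and although the library kit keeps strand, whether the counting used it is not given in the sources used here. Rapgef3os1 had 0 counts in all libraries and Rapgef3os2 at most 7, against 588 to 2385 for Rapgef3.

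Klk7 was at or under the floor in every COX-competent tumor, with 1, 0, 0 and 1 counts. The Ptgs-/- tumors had 8, 17 and 16 counts (0.981, 1.76 and 1.46 CPM) and the NK-depleted ones had 18, 22 and 14 (1.93, 2.03 and 1.39 CPM). These are few counts, but each of the 6 deficient libraries was above the floor and above all Ptgs+/+ libraries. Set against the floor averaged over the 4 Ptgs+/+ libraries, the mean of 1.40 ± 0.392 CPM in Ptgs-/- tumors was at least 5.00-fold higher, and the mean of 1.78 ± 0.343 CPM in NK-depleted Ptgs-/- tumors was at least 6.36-fold higher. The fitted log2 differences, 4.56 (SE 0.60) and 4.92 (SE 0.58), depend on how the model treats counts of 0. With only the Ptgs-/- and Ptgs+/+ libraries fitted, Klk7 did not pass the filter on low counts.

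**Figure D1:**
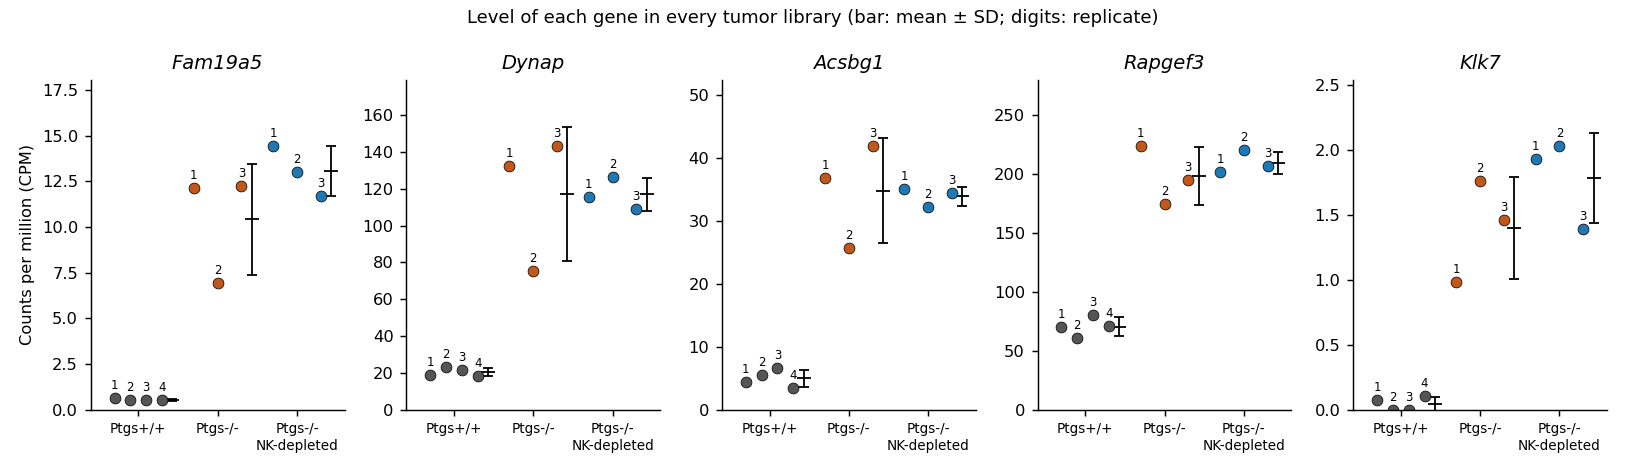
Levels in CPM (vertical axis, linear, one scale per gene) of the 5 genes in each tumor library, grouped along the horizontal axis; points are libraries with their replicate number, and the bar beside them is the mean ± SD of the group. In every panel all 6 Ptgs-/- libraries lie above all 4 Ptgs+/+ libraries, and Ptgs-/- replicate 2 is the lowest deficient library except for Klk7.

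With edgeR's quasi-likelihood test, a gene was called when its false discovery rate was at most 0.05 and its log2 fold change reached 1.5 in either direction. By that rule 4 of the 5 genes, all but Rapgef3, were called higher in Ptgs-/- than in Ptgs+/+ tumors, where 3.14% of all tested genes were, and 5 of 5 in NK-depleted Ptgs-/- tumors, where 2.01% were. For all 5, no deficient library overlapped the Ptgs+/+ libraries, as for 18.1% of all tested genes in the first comparison and 15.1% in the second. Since these contrasts chose the genes, nothing follows from these counts. The median log2 fold change of all tested genes was -0.01 in each of these comparisons and 0.01 between the COX-deficient groups.

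The next comparison asked whether the levels differed between COX-deficient tumors of untreated and of NK cell-depleted hosts. Its spread was estimated in the model that also held the Ptgs+/+ libraries. None of the 5 genes was called in either direction, where 1.15% of all tested genes were called (167 of 14550, 0.825% higher and 0.323% lower in NK cell-depleted hosts), and none passed at an unadjusted p under 0.05, where 11.2% of all tested genes did. DESeq2 called none of them either, nor did edgeR with only these COX-deficient groups fitted. These groups also differed in skeletal muscle markers, of which 8 of 10 were called higher in NK cell-depleted hosts with a median of 3.65 on the log2 scale, and in NK cell markers, of which 9 of 10 were called lower. The part of these cells in the differences of the 5 genes was not tested. The genes were proposed as independent of NK cells with these results known, so the absence of a call is not independent evidence of that.

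The intervals give how large a difference these libraries still allow. With edgeR's quasi-likelihood test and Benjamini-Hochberg adjustment over all tested genes, the log2 difference of NK cell-depleted from untreated hosts was 0.11 for Rapgef3 (SE 0.12, 95% interval -0.16 to 0.37, adjusted p = 0.793), which is the narrowest of the 5 and spans 0.897-fold to 1.30-fold. For Dynap it was 0.03 (SE 0.20, -0.41 to 0.46, edgeR adjusted p = 0.966), or 0.754-fold to 1.38-fold. Acsbg1 gave -0.01 (SE 0.21, -0.47 to 0.45, edgeR adjusted p = 0.989), or 0.720-fold to 1.37-fold. Fam19a5 gave 0.35 (SE 0.21, -0.11 to 0.82, edgeR adjusted p = 0.599), or 0.924-fold to 1.77-fold. The interval of Klk7 was the widest, at 0.36 (SE 0.38, -0.48 to 1.20, edgeR adjusted p = 0.777), or 0.719-fold to 2.30-fold. Klk7 did not pass the filter on low counts with only the Ptgs-/- and Ptgs+/+ libraries fitted. Its value here therefore depends on a filter that it passed through the NK-depleted libraries, where its mean was highest. The upper bounds of Fam19a5, Dynap, Acsbg1 and Rapgef3 are under a 2-fold difference, while that of Klk7 is above it. In libraries of bulk tumor, more cells of a type and more RNA per cell cannot be told apart, and nothing in the labels ties replicates to separate batches of cells, so these p-values measure the spread between these samples.

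**Figure D2:**
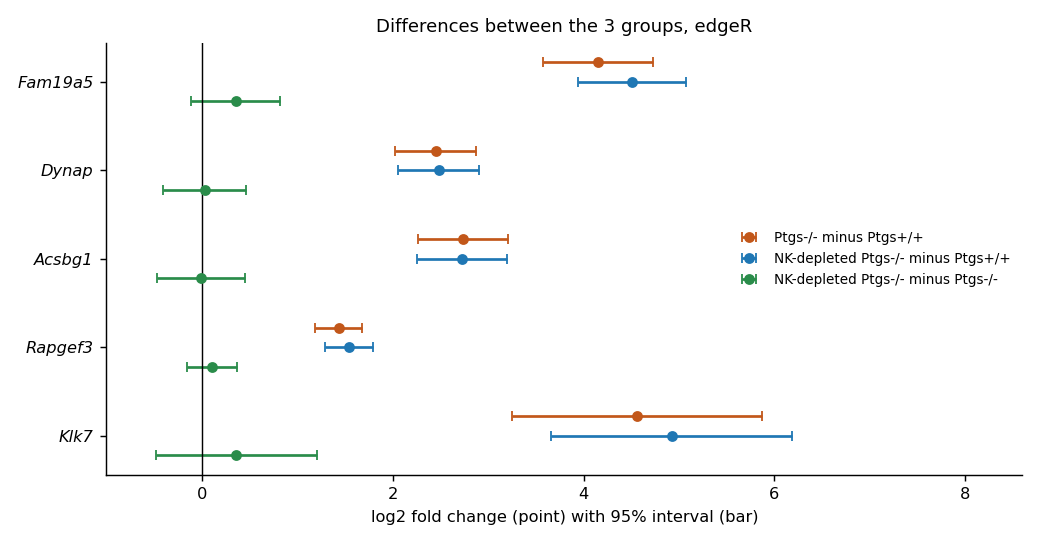
Fitted log2 fold change (point) with its 95% interval (bar) on the horizontal axis for each gene, in orange for Ptgs-/- minus Ptgs+/+, in blue for NK-depleted Ptgs-/- minus Ptgs+/+ and in green for NK-depleted minus untreated Ptgs-/- tumors. The orange and blue points, which share the Ptgs+/+ libraries and chose the genes, lie between 1.43 and 4.92, and every green interval spans 0.

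Among the 6 deficient tumors, 4 of the genes were lowest in the same library. Ptgs-/- replicate 2 held 59.0% of the mean of the 6 for Fam19a5, 64.4% for Dynap, 74.7% for Acsbg1 and 85.8% for Rapgef3. Klk7 was instead at 110.6% there and lowest, at 61.7%, in Ptgs-/- replicate 1, which had 8 counts. The spread was wider for all 5 genes in untreated than in NK cell-depleted hosts, with coefficients of variation of 29.1% against 10.4% for Fam19a5, 31.2% against 7.59% for Dynap, 23.9% against 4.45% for Acsbg1, 12.4% against 4.60% for Rapgef3 and 28.0% against 19.2% for Klk7, which is a description of 3 libraries a group with no test. The share of all tested genes with a wider spread in untreated hosts was not computed. Over genes in general, pairs of Ptgs-/- libraries differed by 11.64, 20.22 and 21.16 in chi-square per degree of freedom. Pairs of NK-depleted libraries differed by 7.41, 9.31 and 13.22. Of these groups only the untreated one holds both label codes described below.

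Without Ptgs-/- replicate 2, the log2 difference of NK cell-depleted from untreated hosts became 0.12 for Fam19a5, -0.22 for Dynap, -0.20 for Acsbg1, 0.01 for Rapgef3 and 0.55 for Klk7, and none was called. Against Ptgs+/+, the values without that library were 4.39, 2.70, 2.92, 1.52 and 4.38 in the same order, so that Rapgef3 passed the threshold of 1.5. Summed marker levels in that library were 87.5 CPM for T cells and 116.9 CPM for NK cells, against 40.0 and 107.1 CPM and 96.2 and 204.3 CPM in the other Ptgs-/- libraries, and 301.2 CPM for skeletal muscle against 445.2 and 122.4 CPM. Endothelial markers were at 425.9 CPM there, against 230.0 and 534.9 CPM, and the melanocytic sum of 40.0 CPM was the highest of the 3. Other lists were lowest in this library, as 4 of the genes were. Glial markers were at 284.4 CPM against 629.3 and 430.5 CPM, the list for the cornified layer at 22.9 CPM against 51.5 and 31.8 CPM, and markers of regulatory T and Th17 cells at 124.8 CPM against 199.4 and 136.5 CPM. Most of that last sum was the marker Il1rl1, with a mean of 113.5 CPM in Ptgs-/- tumors. T cell, NK cell, muscle and endothelial markers lay between the other Ptgs-/- libraries, and the part of cell content in its lower levels was not tested.

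**Figure D3:**
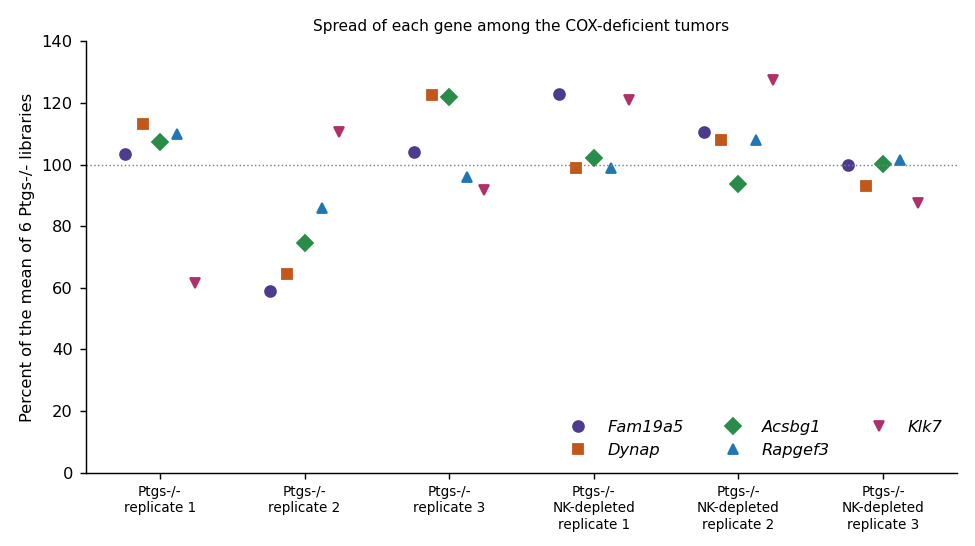
Level of each gene in the 6 COX-deficient libraries as a percent of its mean over them (vertical axis, linear from 0), with libraries along the horizontal axis and 1 symbol per gene. Ptgs-/- replicate 2 lies between 59.0% and 85.8% for 4 genes and at 110.6% for Klk7, while the NK-depleted libraries lie between 87.4% and 127.6%.

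The labels carry a code, EB046 or EB042, whose meaning they do not give. Ptgs+/+ replicate 4 and Ptgs-/- replicate 3 carry EB042, and all NK cell-depleted libraries carry EB046. Within the EB046 libraries the log2 differences of Ptgs-/- from Ptgs+/+ tumors were 4.04 for Fam19a5, 2.27 for Dynap, 2.48 for Acsbg1, 1.48 for Rapgef3 and 5.06 for Klk7. Those of NK cell-depleted from untreated Ptgs-/- tumors were 0.45, 0.16, 0.11, 0.06 and 0.35, with none called, and those with the code as a term of the model were 0.44, 0.07, -0.02, 0.09 and 0.43. The 2 EB042 libraries, 1 per group, gave 0.523 against 12.2 CPM for Fam19a5, 18.4 against 143.3 for Dynap, 3.45 against 41.9 for Acsbg1, 70.8 against 195.2 for Rapgef3 and 1 against 16 counts for Klk7.

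Each gene was then set beside the other genes of its family or pathway, which were listed by function and not by how they moved. The TAFA list held the other family members and proposed receptors, and of its 4 other tested genes none was called in any comparison, where 4.15%, 2.71% and 1.15% of all tested genes were called in Ptgs-/- and in NK-depleted Ptgs-/- against Ptgs+/+ tumors and between the COX-deficient groups. Fam19a1, the only relative with a usable level, was at 14.7 ± 1.76 CPM in Ptgs+/+, 14.7 ± 4.33 CPM in Ptgs-/- and 16.3 ± 1.55 CPM in NK-depleted Ptgs-/- tumors. Fam19a2 and Fam19a3 reached at most 5 and 6 counts in a library, and Fam19a4 had 0 in all 10. Among the receptors, Fpr2, a formyl peptide receptor of myeloid cells, fell by 1.35 (SE 0.24) on the log2 scale in NK cell-depleted against untreated Ptgs-/- tumors (edgeR adjusted p = 0.0137), past the false discovery rate, as were 0.515% of all tested genes downward and 0.921% upward, but short of the threshold of 1.5. S1pr2, a receptor for sphingosine 1-phosphate, was at 118.2, 126.1 and 140.4 CPM in the 3 groups.

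None of the 20 tested genes of dynactin and dynein, the machinery that Dynap binds, was called in any comparison. The median of their log2 fold changes was -0.06 in Ptgs-/- and 0.02 in NK-depleted Ptgs-/- against Ptgs+/+ tumors. At the false discovery rate alone, which 12.1% of all tested genes passed upward and 11% downward in Ptgs-/- tumors, 0 passed upward and 2 downward, the dynactin subunit Actr10 at -0.41 (SE 0.08) and the light chain Dynll1 at -0.58 (SE 0.12). In NK-depleted Ptgs-/- tumors 3 passed downward, where 5.87% of all tested genes did.

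Of the 7 other tested acyl-CoA synthetases, which activate fatty acids as Acsbg1 does, none was called and none passed at the false discovery rate alone in any comparison. In Ptgs-/- against Ptgs+/+ tumors 4.15% of all tested genes were called, and 12.1% passed upward and 11% downward at the false discovery rate alone. The log2 fold changes of the 7 ran from -0.37 to 0.52 in Ptgs-/- against Ptgs+/+ tumors, with a median of -0.14. Acsl4, which prefers arachidonic acid, the substrate of the COX enzymes, was at 128.7 CPM in Ptgs+/+, 121.8 CPM in Ptgs-/- and 131.6 CPM in NK-depleted Ptgs-/- tumors. The bubblegum relative Acsbg2 had 1 count in all 10 libraries together.

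The Rap list held the exchange factors, the Rap GTPases and their effectors. None of its 20 other tested genes was called, with a median of 0.11 on the log2 scale in Ptgs-/- and -0.02 in NK-depleted Ptgs-/- against Ptgs+/+ tumors. At the false discovery rate alone, 4 of the 20 passed upward and 2 downward in Ptgs-/- tumors, where 12.1% and 11% of all tested genes did, and 3 and 2 in NK-depleted Ptgs-/- tumors, where 6.63% and 5.87% did. Upward in Ptgs-/- tumors were Rap1b at 0.40 (SE 0.09), the adaptor Apbb1ip at 0.65 (SE 0.10), Rap1gap at 0.70 (SE 0.18) and Rap1gap2 at 0.40 (SE 0.12). Downward were Sipa1l1 at -0.61 (SE 0.16) and the endothelial effector Rasip1 at -0.87 (SE 0.23). Endothelial marker sums were 605.5 to 666.5 CPM in Ptgs+/+ and 230.0 to 534.9 CPM in Ptgs-/- tumors, with 0 of 12 markers called. At the false discovery rate alone 4 of the 12 passed downward there, Pecam1, Tie1, Cdh5 and Esam, and the median over the 12 was -0.83, near the value of Rasip1. Their part in the Rasip1 value was not tested. Rapgef4, which encodes EPAC2, the other cAMP-bound exchange factor, had 12 to 25 counts in Ptgs+/+ tumors and 5, 6 and 25 in Ptgs-/- tumors, a log2 difference of -0.66 (SE 0.43, edgeR adjusted p = 0.302).

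Of 22 tested genes that make, break or read cAMP beside EPAC1, none was called. At the false discovery rate alone, 1 passed upward and 3 downward in Ptgs-/- against Ptgs+/+ tumors, where 12.1% and 11% of all tested genes did. Upward was Adcy7, an adenylyl cyclase, at 1.18 (SE 0.16). Downward were Pde4b, a phosphodiesterase that breaks cAMP down, at -1.19 (SE 0.16), the PKA regulatory subunit Prkar2b at -0.64 (SE 0.11), and the cyclase Adcy4 at -0.94 (SE 0.29). In NK-depleted Ptgs-/- tumors Adcy7 was at 0.79 (SE 0.16), Pde4b at -0.98 (SE 0.16) and Prkar2b at -0.46 (SE 0.11), each again past the false discovery rate, as 6.63% of all tested genes were upward and 5.87% downward, and 0 of the 22 passed between the COX-deficient groups.

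The kallikrein list held 26 genes, of which 12 had 0 counts in all libraries and 3 passed the filter. Beside Klk7, the tissue kallikrein Klk1 was called higher in Ptgs-/- tumors at 2.27 (SE 0.41, edgeR adjusted p = 0.00256) and in NK-depleted Ptgs-/- tumors at 1.85 (SE 0.42, edgeR adjusted p = 0.015). Its mean levels were 0.255 ± 0.129, 1.32 ± 0.116 and 0.969 ± 0.220 CPM, so its Ptgs+/+ level was near the floor. Klk10 held 13 to 26 counts in every library, with a log2 difference of -0.11 (SE 0.26) in Ptgs-/- tumors. Klk8 and Klk6, whose genes flank Klk7, had at most 7 and 3 counts. In the list for the cornified layer, 1 of 5 tested genes was called higher against Ptgs+/+ in Ptgs-/- and in NK-depleted Ptgs-/- tumors, where 3.14% and 2.01% of all tested genes were. This was Cst6, which encodes cystatin E/M, a protease inhibitor of the epidermis. Its level was 2.91 CPM in Ptgs+/+, 9.67 CPM in Ptgs-/- and 11.7 CPM in NK-depleted Ptgs-/- tumors, a log2 difference of 1.66 (SE 0.26, edgeR adjusted p = 0.00117) and 1.97 (SE 0.26, edgeR adjusted p = 0.000532). Over the 5 tested genes of this list the median was -0.57 in Ptgs-/- and -0.20 in NK-depleted Ptgs-/- tumors. Their values in Ptgs-/- tumors ran from -1.66 to 1.66, and 0 were called lower.

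Of 7 tested markers of keratinocytes, the cells in which Klk7 is best known, 0 were called higher in any comparison. Of all tested genes, 3.14% and 2.01% were called higher against Ptgs+/+ in Ptgs-/- and in NK-depleted Ptgs-/- tumors. The basal keratin Krt5 was called lower in Ptgs-/- tumors at -1.81, where 1.01% of all tested genes were. The summed keratinocyte level was 33.6 to 72.9 CPM in Ptgs+/+, 31.6 to 45.4 CPM in Ptgs-/- and 44.7 to 51.9 CPM in NK-depleted Ptgs-/- tumors. Krt1 and Dsg3 had 1 count each in all libraries together, and Flg had 0.

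**Figure D4:**
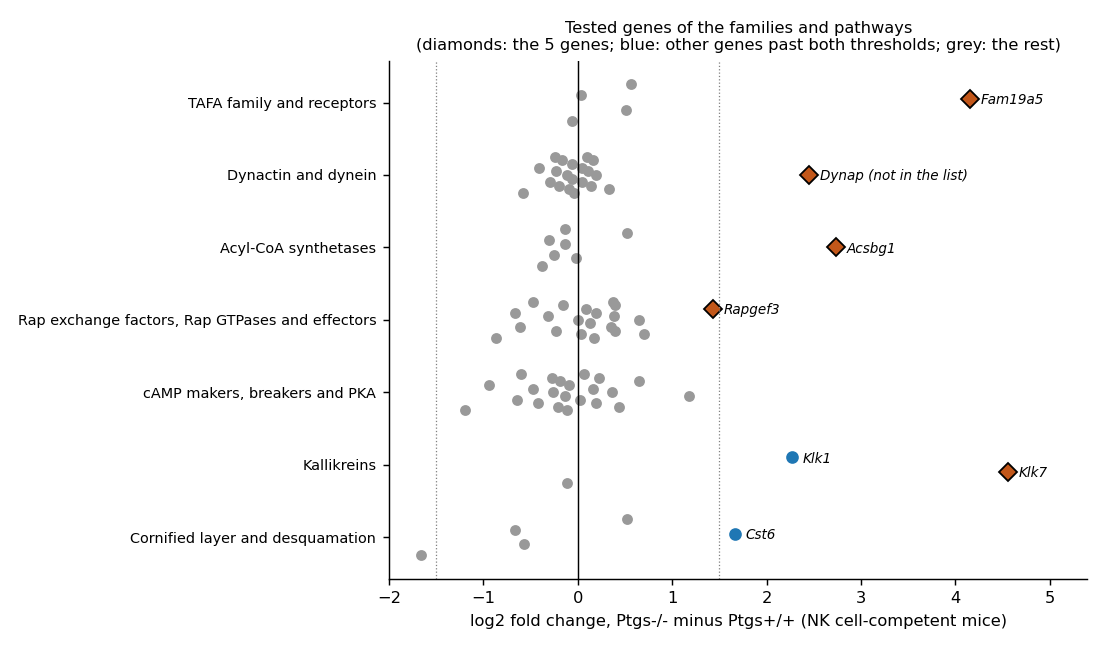
Log2 fold change of Ptgs-/- minus Ptgs+/+ tumors of untreated mice (horizontal axis) for the tested genes of 7 lists (rows), with the 5 genes as diamonds, other called genes in blue and the rest in grey; dotted lines mark -1.5 and 1.5, and Dynap is drawn beside the list of its partners. The other genes of the first 5 lists lie between -1.19 and 1.18, and Klk1 and Cst6 are the other called genes.

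The 5 nearest tested genes on either side of each of the 5 genes were examined as a description. Of these 50 neighbours, 1 was called higher, where 3.14% of all tested genes were, and 0 lower in Ptgs-/- against Ptgs+/+ tumors, and the median over the 50 was 0.10 on the log2 scale. In NK-depleted Ptgs-/- tumors 2 were called higher, where 2.01% of all tested genes were, with a median of 0.11. The called neighbour of Klk7 was Klk1, 409.0 kb away. The other was Sln, 750.3 kb from Acsbg1, which encodes sarcolipin, a muscle protein, at 6.71 (SE 0.67) against Ptgs+/+ and 4.65 (SE 0.62) against untreated Ptgs-/- tumors. Summed skeletal muscle markers were 21.8 to 182.9 CPM in Ptgs+/+, 122.4 to 445.2 CPM in Ptgs-/- and 2435 to 5939 CPM in NK-depleted Ptgs-/- tumors, and of 10 markers 5 were called higher in Ptgs-/- and 10 in NK-depleted Ptgs-/- against Ptgs+/+ tumors. Their part in the Sln value was not tested. Next to Rapgef3, Endou was 13.4 kb away at 0.84 (SE 0.28) and Slc48a1 10.6 kb away at 0.55 (SE 0.14). None of the 10 neighbours of each of Fam19a5, Dynap and Rapgef3 was called in any comparison.

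**Figure D5:**
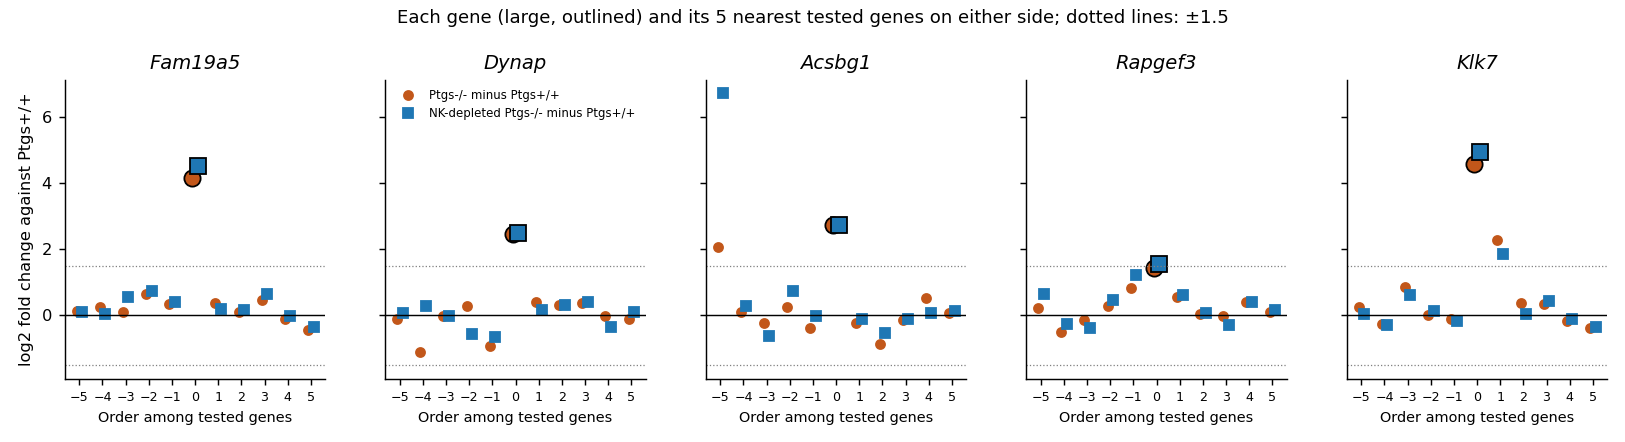
Log2 fold change against Ptgs+/+ tumors (vertical axis) of each gene (large outlined symbol at 0) and of its 5 nearest tested genes on either side (horizontal axis, by order along the chromosome), with circles for Ptgs-/- and squares for NK-depleted Ptgs-/- tumors. Of the 50 neighbours only Klk1 beside Klk7 and Sln near Acsbg1 were called; the dotted lines mark -1.5 and 1.5.

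The genes with the most similar patterns were found by Pearson's r of log2(CPM + 1) over the 10 libraries, among 13993 genes with a mean of at least 1 CPM. The points share their groups and cell lines, so r is a description with no test. The 5 genes resembled each other, with r from 0.928 (Acsbg1 with Klk7) to 0.991 (Fam19a5 with Dynap). Nearest to Fam19a5 were Dynap, Nptx1 (0.988), which encodes a neuronal pentraxin and was at 3.03, 21.6 and 30.8 CPM in the 3 groups, and Gm16104 (0.988). Nearest to Dynap were Fam19a5, Acsbg1 (0.991) and Add2 (0.988), the gene of beta-adducin, at 0.141, 2.15 and 2.49 CPM. Acsbg1 was followed by Dynap, Fam19a5 (0.984) and Scaf11 (0.981). Rapgef3 was followed by Fam19a5 (0.988), Sox9 (0.984), a transcription factor of the neural crest and of cartilage at 118.9, 286.0 and 334.6 CPM, and Nefm (0.983), a neurofilament gene at 3.12, 22.8 and 33.8 CPM. The 3 genes nearest to Klk7 were Itgb7 (0.983), an integrin chain of leukocytes, Slc26a2 (0.982) and Sft2d2 (0.98), and none of these is in the sets of the other 4.

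Markers of other cells differed between the groups in which the 5 genes were higher. Of 10 tested NK cell markers, 7 were called higher in Ptgs-/- than in Ptgs+/+ tumors, where 3.14% of all tested genes were. In NK-depleted against untreated Ptgs-/- tumors 9 were called lower, where 0.323% of all tested genes were. The NK marker sums were 23.1 to 49.4, 96.2 to 204.3 and 9.74 to 11.2 CPM in the 3 groups. Of 11 tested T cell markers, 10 and 3 were called higher against Ptgs+/+ in the Ptgs-/- tumors without and with depletion, where 3.14% and 2.01% of all tested genes were, with sums of 12.7 to 16.6, 40.0 to 107.1 and 21.6 to 36.2 CPM. Between the COX-deficient groups 2 of the 11, Lck (-2.13) and Trbc1 (-2.36), were called lower with depletion. The NK sum was lowest in the NK-depleted Ptgs-/- tumors, where the means of Fam19a5, Dynap, Acsbg1, Rapgef3 and Klk7 were 13.1, 116.9, 33.9, 209.4 and 1.78 CPM. Acsbg1 is also known from regulatory T and Th17 cells, and of 7 tested markers of these cells 3 were called higher and 1 lower in Ptgs-/- tumors, and 0 and 1 in NK-depleted ones. Of all tested genes, 3.14% were called higher and 1.01% lower in Ptgs-/- tumors, and 2.71% in either direction in NK-depleted ones. The sum of this marker list was 466.7 to 648.3 CPM in Ptgs+/+, 124.8 to 199.4 CPM in Ptgs-/- and 135.8 to 152.8 CPM in NK-depleted Ptgs-/- tumors, and Foxp3 had at most 8 counts in a library. Most of that sum was Il1rl1, the marker called lower (-2.32 in Ptgs-/- tumors), with means of 545, 113.5 and 120.8 CPM in the 3 groups. Of 10 tested glial markers, 3 passed upward at the false discovery rate alone in Ptgs-/- tumors, where 12.1% of all tested genes did, and 0 in NK-depleted ones, with medians over the 10 of 0.91 and 0.45 on the log2 scale. The 3 were Ngfr (2.68), which was also called, Mag (1.47) and Mbp (1.04), and the glial sums were 182.5 to 390.7, 284.4 to 629.3 and 284.6 to 464.7 CPM. Ngfr varied widely, at 4.80 ± 3.79, 32.1 ± 35.1 and 4.78 ± 3.37 CPM in the 3 groups. Adipocyte sums ran from 467.1 to 8589 CPM over all libraries with 0 of 10 markers called, and the part of these cells in the levels of the 5 genes was not tested.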

How the data were processed

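RNA of 10 day-4 melanoma tumors was sequenced from 3′ ends (QuantSeq FWD kit, whose reads keep strand). The authors deposited raw counts per gene, made from trimmed reads by STAR alignment to GRCm38 and featureCounts with the v86 annotation, with no normalization. Tool versions, the strand setting of the counting and the treatment of reads mapping to several genes are not given in the sources used here. Groups came from the submitters' labels.

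GENCODE M21 named 45143 of 45706 gene identifiers. In R 4.3.3, filterByExpr of edgeR 4.0.16 kept 14550 genes, TMM scaled the libraries, and the quasi-likelihood test with Benjamini-Hochberg adjustment was fitted over all 10 libraries together. Standard errors are the log2 fold change over the root of its F. Replicates differed by 7.41 to 30.1 in chi-square per degree of freedom, so none was counted as a duplicate. On simulated data for the comparison of NK cell-depleted with untreated Ptgs-/- tumors, 184 of 200 genes changed by a log2 of 2 were called (92%), with 6 unchanged genes, among 14333.

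The 5 genes and all lists were chosen with earlier results of these data known. Named beside them are Ptgs1, Ptgs2, Ncr1, close paralogs, up to 4 called genes per list, called neighbours and the 3 genes of most similar pattern. Other list genes and neighbours named were chosen after their values were seen. Alternatives included DESeq2 1.42.0, other filters and scaling, the code, a replicate block and each library left out. A further promoter motif is not reported here.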

Additional observations from a re-analysis of the deposited data

Results flagged for a closer look

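The Fam19a5 level of Ptgs+/+ replicate 1, 0.623 CPM from 8 counts, was flagged by an outlier rule against the other 3 Ptgs+/+ libraries, which held 5 or 6 counts. The gap was 0.896 of the group's range, but that range is only 0.516 to 0.623 CPM. The rule is meant for continuous values, so with so few counts no rate of flags by chance is given. This library also had the most counts in total (12839174). Its level is still far below every deficient library.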

How the results depend on the processing

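Over 20 alternatives, 92 values of the 5 genes against Ptgs+/+ in Ptgs-/- tumors and 93 in NK-depleted Ptgs-/- tumors kept their direction. All had edgeR, likelihood ratio or DESeq2 adjusted p at or under 0.05. These contrasts chose the genes and the fits reuse the same libraries, so this is a description and no test. Only Rapgef3 crossed the log2 threshold of 1.5: leaving out 1 library gave 1.33 to 1.52 in Ptgs-/- tumors (1.503 without Ptgs+/+ replicate 3 and 1.52 without Ptgs-/- replicate 2) and 1.48 to 1.61 in NK-depleted ones (1.48 without Ptgs+/+ replicate 2 and 1.496 without NK-depleted Ptgs-/- replicate 2). Between the COX-deficient groups no alternative called any of the 5, and the signs of differences near 0 turned. Dynap became -0.0021 with library size alone and ran from -0.22 to 0.16 with 1 library left out, Acsbg1 became 0.11 within EB046 and ran from -0.20 to 0.11. The cause was not tested. With at least 10 counts in every library, which leaves fewer genes and removes Fam19a5 and Klk7, 305, 142 and 36 genes were called in place of 604, 395 and 167. At the false discovery rate alone 3360 and 1818 passed against Ptgs+/+. Between the COX-deficient groups 87 were called within EB046 and 100 to 213 with 1 library left out, with 100 without Ptgs-/- replicate 2, 107 without Ptgs-/- replicate 3 and 103 without NK-depleted Ptgs-/- replicate 3. Klk7 did not pass the filter on low counts when only the Ptgs-/- and Ptgs+/+ libraries were fitted, so it has no value there. It passed in fits that included the NK-depleted libraries. Whether replicate numbers pair the libraries was not settled. Over 11 same-number pairs, some of them across the codes, r was -0.244 to 0.355, and 4 were over 0.1. Pairs of different numbers had r of -0.426 to 0.166. With the number as a replicate block, 610, 400 and 156 genes were called, 4, 5 and 0 of the 5 genes, and Acsbg1 was at 0.0165. Depth limits Klk7, whose 8 to 22 counts leave the widest interval.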
